A study of Mus musculus with 18 samples.

Results

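Genes of telomere maintenance, 9 in all, were followed through 6 sorted mouse populations: the telomerase genes Tert and Dkc1, the shelterin genes Terf1, Terf2, Terf2ip, Tinf2, Pot1a and Acd, and the telomeric helicase gene Rtel1. They were chosen by symbol, matched to Entrez identifiers, and all 9 were present among the 27179 genes of the count files. RNA was sequenced from untreated young adult C57BL/6 males, 3 libraries per population and 18 libraries in all. Tracheal cells of mice 1 to 3 were split by the surface receptor NGFR into basal stem cells (BSCs, NGFR-positive) and non-basal cells (NGFR-negative). Lung cells of mice 4 to 6 were split into airway CD24hi cells (EpCAM-positive, CD104-positive, enriched in ciliated cells), airway CD24lo cells (the same gate with low CD24, enriched in club cells), alveolar cells (EpCAM-positive, CD104 low) and EpCAM-negative, non-epithelial cells. The series' own design text names only airways and no trachea, and organ and mouse follow the sample labels here. No gate isolated a single cell type, and tracheal and lung cells came from different mice, so organ, animal and cell type cannot be told apart between BSCs and lung cells.

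Telomeres are the repeat tracts at chromosome ends that shorten when cells divide. Telomerase extends them: Tert is its reverse transcriptase, copying a template carried by the RNA Terc, and dyskerin (Dkc1) binds and stabilises Terc together with other H/ACA proteins, which also serve ribosomal RNA modification. Shelterin coats the repeats and keeps them from being treated as DNA breaks. Its subunits Terf1 (TRF1) and Terf2 (TRF2) bind double-stranded repeats, Terf2ip (RAP1) binds Terf2, Tinf2 (TIN2) bridges both binders to Acd (TPP1), and Acd holds Pot1, which binds the single-stranded overhang. Mice have a pair of Pot1 genes, Pot1a and Pot1b. Rtel1 unwinds the telomeric loop and other DNA structures.

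The tracheal libraries held 29317215 to 32993621 counted reads and the lung libraries 9811503 to 13208897. Summed marker levels followed the labels: in RPKM (a count scaled to gene length and to the size of the library, with library sizes adjusted by the trimmed mean of M-values), 5 basal markers reached 1860 to 1940 in BSCs and at most 187 elsewhere, 4 ciliated markers 1140 to 1270 in CD24hi cells and at most 214 elsewhere, 3 club markers at least 490000 in CD24lo cells and at most 95300 elsewhere, 5 alveolar type 2 markers at least 173000 in alveolar cells and at most 8630 elsewhere, and 4 fibroblast and smooth muscle markers at least 3550 in EpCAM-negative cells and at most 168 elsewhere. No marker list was restricted to 1 gate. The club sum was carried by Scgb1a1, whereas Scgb3a2 (12870 RPKM) and Cyp2f2 (14270) had higher means in non-basal than in CD24lo cells (10700 and 11590). Of the 2 mesothelial markers, Msln had a mean of 1242 RPKM in non-basal cells, where Upk3b had 0 to 2 reads per library. Endothelial markers summed to between 84.6 and 133 in EpCAM-negative cells, 82.1 to 165 in CD24lo cells and 35.3 to 115 in CD24hi cells. Leukocyte markers summed to between 5.27 and 23.1 in EpCAM-negative cells against at most 5.05 elsewhere. In bulk libraries such as these, fewer cells of a type and less RNA per cell cannot be told apart. The CD24hi library of mouse 4 stood farthest from its group, with a root mean square deviation of 0.43 on the log2 scale, against 0.28 and 0.348 in the others of that gate. The CD24lo library of mouse 4 followed at 0.415, against 0.373 and 0.348 in the others of its gate.

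All 9 genes were expressed in all 18 libraries and passed the low-count filter. In an edgeR quasi-likelihood F test over the 6 populations, all 9 differed (adjusted p between 4.59e-08 for Tert and 0.00142 for Rtel1), against 94.4% of all genes tested. Over the 15 pairs of populations, 84 of the 135 tests of these genes were called at an adjusted p under 0.05, or 62.2%, against 62.7% over all genes. Tert was called in 12 of its 15 pairs and Rtel1 in 5. The spread between populations was small for most: the ratio of the highest to the lowest mean was 3.71 for Tert and between 1.53 (Rtel1) and 2.29 (Terf1) for the other 8, whereas the median of this ratio over all genes tested was 4.65.

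**Figure D1:**
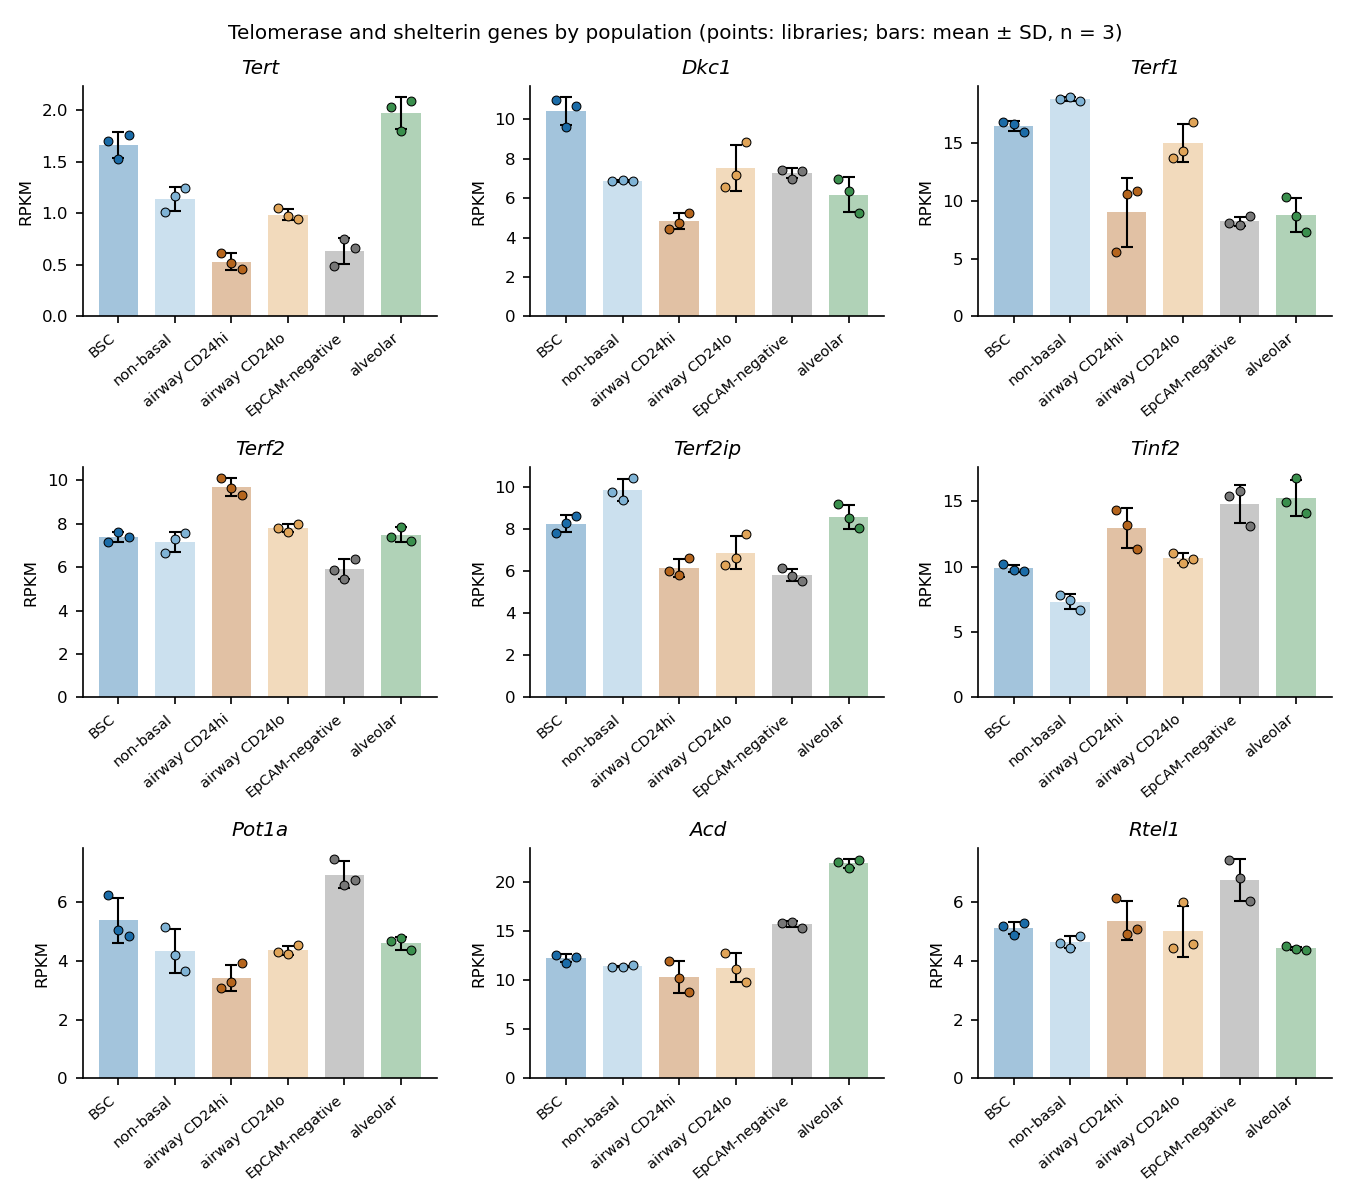
RPKM of the 9 genes (vertical axes, 1 scale per gene) in the 6 populations; points are libraries, bars and whiskers are the mean and SD of 3. Tert spanned the widest range, from a mean of 0.532 in airway CD24hi cells to 1.97 in alveolar cells, and Acd stood highest in alveolar cells at 21.9.

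Tert, the catalytic subunit, was the lowest of the 9 genes per length in every population. In alveolar cells its RPKM was 2.03, 1.80 and 2.09 in mice 4, 5 and 6, and in BSCs it was 1.70, 1.52 and 1.76 in mice 1, 2 and 3. Tracheal non-basal cells had 1.01, 1.17 and 1.25, and CD24lo cells 1.05, 0.975 and 0.941. EpCAM-negative cells had 0.492, 0.747 and 0.667 and CD24hi cells 0.617, 0.519 and 0.459. Alveolar cells and BSCs thus lay above all other libraries, EpCAM-negative and CD24hi libraries below them all, and the last 2 populations overlapped. In the order of means, alveolar cells and BSCs did not pass the test against each other (adjusted p = 0.166), nor did non-basal and CD24lo cells (0.32) or EpCAM-negative and CD24hi cells (0.321), while the steps between these pairs did (0.00584 and 0.00776). These values rest on few reads in the lung: 67 to 79 in alveolar libraries, 28 to 39 in CD24lo, 21 to 31 in EpCAM-negative and 20 to 28 in CD24hi libraries, against 189 to 214 in BSCs. CPM here are counts scaled to the library size adjusted by the trimmed mean of M-values, without gene length. For the CD24hi library with 20 reads, or 1.57 CPM, the exact 95% Poisson interval ran from 0.961 to 2.43 CPM. For the alveolar library with 79 reads, or 6.96 CPM, it ran from 5.51 to 8.68. The intervals cover counting error only.

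Dkc1, whose product is shared by telomerase and the ribosomal RNA modification machinery, was highest in BSCs, with 10.9, 9.60 and 10.7 RPKM. CD24lo cells followed with 6.54, 7.18 and 8.83, EpCAM-negative cells with 7.42, 6.98 and 7.39, and non-basal cells with 6.84, 6.92 and 6.84. Alveolar cells had 6.98, 6.34 and 5.22 and CD24hi cells 4.44, 4.76 and 5.25. No other library reached the lowest BSC library, and CD24hi cells were lower than alveolar cells, next in the order (adjusted p = 0.0172), although 1 CD24hi library lay just above the lowest alveolar one. Among the 4 populations between these ends, no neighbouring pair passed the test. Per length, the ratio of Dkc1 to Tert was lowest in alveolar cells, 3.15 ± 0.568 (SD, n = 3), about 6 in the tracheal cells (6.26 ± 0.192 in BSCs and 6.05 ± 0.636 in non-basal cells) and highest in EpCAM-negative cells, 11.8 ± 2.94.

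Terf1 and Terf2, the duplex repeat binders, varied differently from each other. Terf1 had 18.8, 19.0 and 18.7 RPKM in non-basal cells, 16.8, 16.7 and 16.0 in BSCs and 13.8, 14.4 and 16.9 in CD24lo cells. It had 10.4, 8.68 and 7.36 in alveolar cells, 8.11, 7.89 and 8.67 in EpCAM-negative cells and 5.59, 10.6 and 10.8 in CD24hi cells, where the low library was that of mouse 4. The libraries of the first 3 populations all lay above those of the last 3. Terf2 ranged only from a mean of 5.90 ± 0.447 RPKM in EpCAM-negative cells to 9.69 ± 0.395 in CD24hi cells (SD, n = 3), and among the 4 populations between them, at 7.16 to 7.80, no neighbouring pair passed the test. The ratio of Terf1 to Terf2 was accordingly 2.64 ± 0.189 in non-basal cells, 2.23 ± 0.104 in BSCs, 1.92 ± 0.18 in CD24lo cells, 1.40 ± 0.0412 in EpCAM-negative cells and 1.18 ± 0.2 in alveolar cells. In CD24hi cells it was 0.554 in mouse 4 and 1.10 and 1.16 in mice 5 and 6.

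Terf2ip, the partner of Terf2, had its highest mean in non-basal cells (9.39 to 10.4 RPKM) and its lowest in EpCAM-negative cells (5.52 to 6.14). Neither end passed the test against its neighbour, alveolar cells (adjusted p = 0.0701) and CD24hi cells (0.467), and the libraries of the latter pair overlapped. For Terf2ip the step from BSCs to CD24lo cells passed (0.0213). Tinf2, the bridging subunit, was highest in alveolar cells, with 14.9, 16.8 and 14.1 RPKM, and in EpCAM-negative cells, with 15.4, 15.8 and 13.1. It had 14.4, 13.2 and 11.3 in CD24hi cells, 11.1, 10.3 and 10.6 in CD24lo cells and 10.2, 9.74 and 9.63 in BSCs. Non-basal cells had the lowest values, 7.86, 7.41 and 6.70, with no overlap with any other population. The 2 neighbouring steps that passed the test were those from CD24hi to CD24lo cells (adjusted p = 0.0401) and from BSCs to non-basal cells (0.0027). Over the 18 libraries the log2 CPM of Tinf2 ran opposite to that of Terf1 (Pearson r = -0.88), the most negative value among all pairs of the 9 genes. Terf2 and Pot1a followed closely (-0.872). Both values describe libraries that share population, organ and depth.

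Pot1a, one of the overhang-binding genes, was highest in EpCAM-negative cells (6.57 to 7.46 RPKM) and lowest in CD24hi cells (3.06 to 3.92). Acd, which recruits Pot1 and telomerase to the telomere, had 22.0, 21.4 and 22.2 RPKM in alveolar cells and 15.8, 15.9 and 15.3 in EpCAM-negative cells. The 12 libraries of the other 4 populations had 8.78 to 12.8. Alveolar libraries thus stood apart from all others, and EpCAM-negative libraries from the rest, and both steps passed the test (adjusted p = 0.000841 and 0.0058). No neighbouring pair among BSC, non-basal, CD24lo and CD24hi cells did. Between the ends of that set, Acd was higher in BSCs than in CD24hi cells (log2 fold change 0.25, adjusted p = 0.0471), with overlapping libraries. Rtel1 varied least: its libraries ran from 4.37 to 7.43 RPKM, and the step from EpCAM-negative cells, the highest at 6.75 ± 0.707 (SD, n = 3), to CD24hi cells was the 1 neighbouring step that passed (0.0179).

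With Pot1b, the paralogue outside the 9, the 7 shelterin genes summed to between 54.2 ± 1.43 RPKM in CD24hi cells and 69.3 ± 2.8 in alveolar cells (SD, n = 3), and their shares of that sum differed more widely. Terf1 supplied 30.8% ± 0.436 of the sum in non-basal cells, 26.2% ± 0.587 in BSCs and 25.2% ± 2.07 in CD24lo cells. Its share was 16.6% ± 5.32 in CD24hi cells, 13.2% ± 0.978 in EpCAM-negative cells and 12.7% ± 1.78 in alveolar cells. Acd supplied 31.6% ± 1.83 in alveolar cells and 25.2% ± 0.294 in EpCAM-negative cells, against 18.6% to 19.5% in the other populations. Pot1a exceeded Pot1b in each of the 18 libraries, with a mean ratio between 1.25 ± 0.126 in CD24lo cells and 1.83 ± 0.119 in non-basal cells. These are shares of transcripts per length and say nothing of protein.

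**Figure D2:**
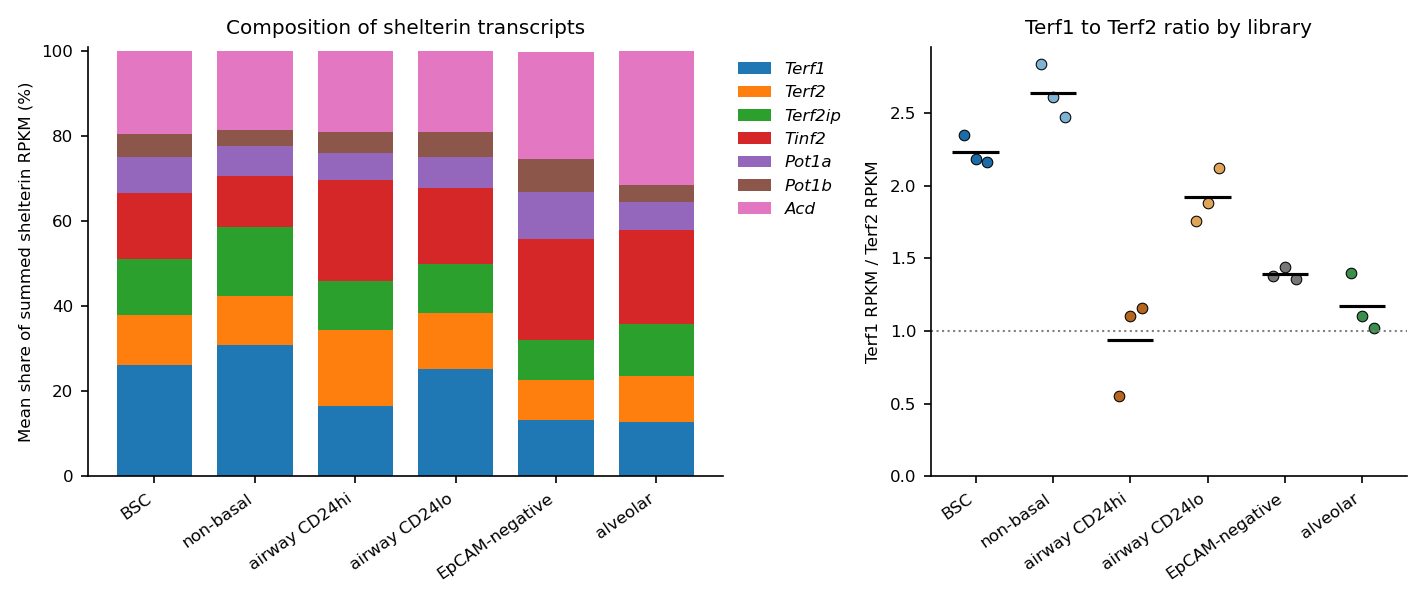
Left, the mean share (%) of each of 7 shelterin genes in their summed RPKM, by population; right, the ratio of Terf1 to Terf2 RPKM in each library, with lines at the means. Acd took 31.6% in alveolar cells, and the Terf1 to Terf2 ratio ran from 2.64 in non-basal cells to 0.939 in airway CD24hi cells, where the library of mouse 4 lay at 0.554.

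The comparison of BSCs with non-basal cells asked how the stem cells differ from the rest of the tracheal epithelium of the same 3 mice. BSCs had more Tert, Dkc1 and Tinf2 and less Terf2ip. Tert was 1.45-fold higher (log2 fold change 0.54 ± 0.15 SE, adjusted p = 0.00584), Dkc1 1.52-fold (0.60 ± 0.11, 0.000262) and Tinf2 1.35-fold (0.43 ± 0.11, 0.0027). Terf2ip was lower by 0.26 ± 0.09 on the log2 scale (fold 0.838, adjusted p = 0.0264), but turned to 0.09 (adjusted p = 0.403) when libraries were scaled by size alone. These were 4 of the 9 genes, 3 higher and 1 lower, against 48.2% of all genes called, and the median over the 9 was a log2 fold change of 0.14, beside -0.02 over all genes. Pot1a had a log2 fold change of 0.31 (adjusted p = 0.0548) and Terf1 -0.19 (0.36). In a fit of only these 6 libraries Terf1 passed without pairing by mouse (-0.20, 0.0176) and with it (-0.20, 0.00635), and Pot1a passed with it (0.31, 0.00132). Pot1a also passed with DESeq2 (0.0454), DESeq2 size factors (0.0494), limma voom (0.028) and a length trend removed (0.0378), and without BSC replicate 3 (0.0407) or non-basal replicate 1 (0.011). Terf2, Acd and Rtel1 lay between 0.05 and 0.14 and did not pass, but Acd did with the length trend removed (0.30, 0.00564).

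Terf2ip was called in neither direction without BSC replicate 1 or 2 or non-basal replicate 1 or 3, with adjusted p-values of 0.0932, 0.0613, 0.0516 and 0.109, nor when tracheal libraries were thinned to the lung depth (-0.21, 0.08). Scaling by library size alone called 7 of the 9 higher and 0 lower, and moved the median over all genes from -0.02 to 0.31. It raised the calls over all 17989 genes tested from 8668 to 10769.

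The 3 genes that were higher in BSCs than in non-basal cells are shown by their promoter windows, 250 bases before to 50 bases after a RefSeq transcription start in GRCm38.p6, read along the gene. Capitals mark the GC box GGGCGG or its reverse complement CCGCCC, the site bound by Sp family factors, which was searched on both strands with the E-box CACGTG, the site bound by Myc and its partners. Tert lies on the plus strand at chr13:73626661-73626960, Dkc1 on the plus strand at chrX:75095604-75095903 and Tinf2 on the minus strand at chr14:55681768-55682067. The Tinf2 window lies inside the annotated gene, which reaches to 55682159, so it is not a window at the gene's outer end. That outer end was not searched.
Tert: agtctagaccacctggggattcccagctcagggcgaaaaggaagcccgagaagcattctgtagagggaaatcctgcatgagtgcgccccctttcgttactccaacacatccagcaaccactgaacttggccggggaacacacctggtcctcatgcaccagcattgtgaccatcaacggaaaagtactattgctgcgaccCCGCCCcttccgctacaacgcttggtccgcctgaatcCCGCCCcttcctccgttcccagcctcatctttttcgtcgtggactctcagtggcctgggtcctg
Dkc1: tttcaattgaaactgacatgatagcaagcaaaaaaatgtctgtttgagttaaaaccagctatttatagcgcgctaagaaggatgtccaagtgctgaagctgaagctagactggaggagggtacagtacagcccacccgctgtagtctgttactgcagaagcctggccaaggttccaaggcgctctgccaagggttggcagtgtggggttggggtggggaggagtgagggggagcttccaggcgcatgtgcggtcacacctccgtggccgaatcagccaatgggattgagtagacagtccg
Tinf2: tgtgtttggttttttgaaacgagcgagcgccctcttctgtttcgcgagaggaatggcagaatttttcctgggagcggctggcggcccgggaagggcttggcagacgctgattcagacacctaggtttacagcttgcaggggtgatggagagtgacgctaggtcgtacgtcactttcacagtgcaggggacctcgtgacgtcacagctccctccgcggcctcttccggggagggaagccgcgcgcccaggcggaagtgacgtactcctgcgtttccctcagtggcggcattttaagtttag
The Tert window held 2 GC boxes, beginning 51 and 14 bases before the start, and those of Dkc1 and Tinf2 held none. Windows were at hand for 8 of the 9 genes, all but Terf1. Of these, 5 held a GC box (Tert, Terf2, Terf2ip, Pot1a and Rtel1), as did 35.9% of 27025 mouse promoters, and 0 held the E-box, which 7.24% of promoters held. The 3 genes therefore shared neither of the searched motifs in these windows. A match is a run of letters and not a binding site.

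The proliferation genes moved alongside in this comparison. Of 15, 13 were higher in BSCs and 1 lower (median log2 fold change 1.06), with Mki67 2.99-fold higher (adjusted p = 0.00016) and Mcm2, a subunit of the replicative helicase, 1.79-fold (0.00051). Their summed RPKM was 151 to 174 in BSCs and 105 to 106 in non-basal cells. Over all 6 populations, the sum was lowest in CD24hi (47.1 to 50.3) and EpCAM-negative cells (51.7 to 59.4), where Tert was also lowest, and was 59.7 to 69.8 in CD24lo cells. In alveolar cells it was 82.4 to 93.7, with Tert at its highest. Pcna, the sliding clamp of replication, made up most of that sum at a mean of 50.03 RPKM. Between alveolar and CD24lo cells the 15 genes went both ways, with 6 called higher in alveolar cells and 3 lower. The mean levels of Mki67 (1.05 against 1.17, not called), Top2a, Cdk1 and Plk1 were lower in alveolar cells. Those of Bub1 (4.96 against 0.277), Mcm2 (4.27 against 2.17) and Mcm6 (11.6 against 7.96) were higher. The part of cell division in the Tert and Dkc1 levels was not tested.

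**Figure D3:**
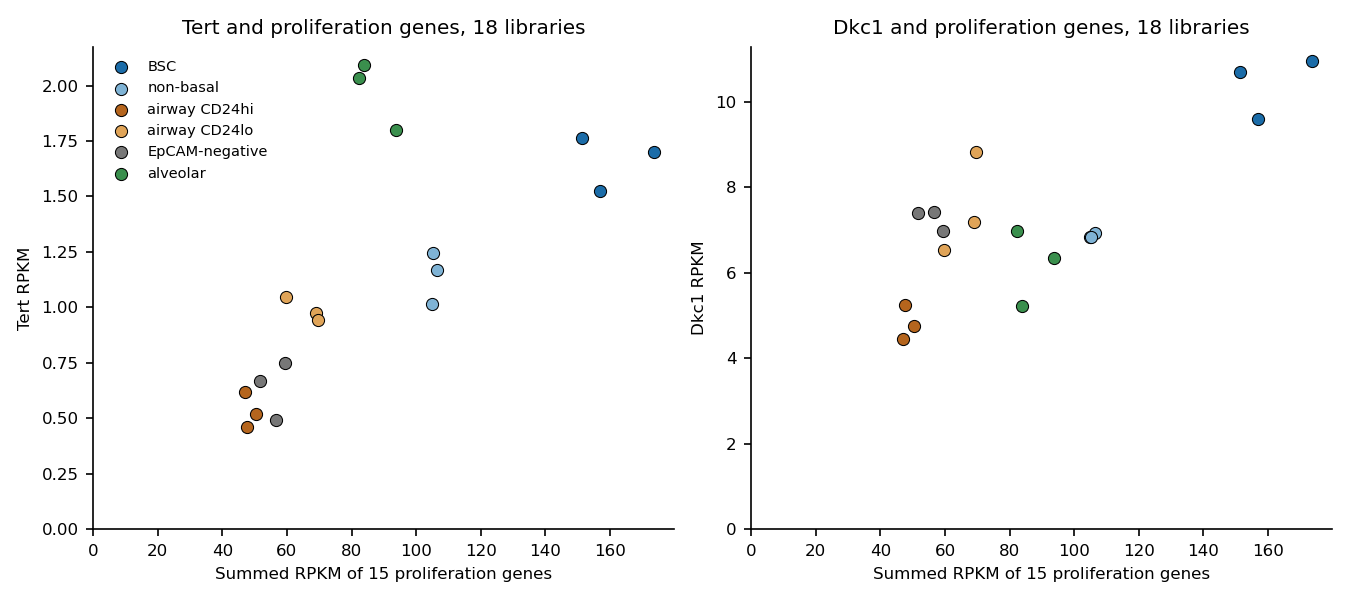
Tert (left) and Dkc1 (right) RPKM against the summed RPKM of 15 proliferation genes in each of the 18 libraries, coloured by population. Airway CD24hi libraries sit at sums of 47.1 to 50.3 with the lowest means of both genes, BSC libraries at 151 to 174, and alveolar libraries at 82.4 to 93.7 with Tert between 1.80 and 2.09.

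BSCs were set against alveolar cells to ask how the tracheal stem cells differ from the distal lung epithelium. Dkc1 and Terf1 were higher in BSCs and Tinf2 and Acd lower. Dkc1 was 1.68-fold higher (log2 fold change 0.75 ± 0.12 SE, adjusted p = 2.28e-05) and Terf1 1.87-fold (0.90 ± 0.18, 0.000224). Acd was lower by 0.84 ± 0.10 (fold 0.56, adjusted p = 1.67e-06) and Tinf2 by 0.63 ± 0.11 (fold 0.646, 5.13e-05). Tert, at -0.25 ± 0.15 (0.166), did not pass, nor did Terf2, Terf2ip, Pot1a and Rtel1, at -0.02, -0.06, 0.22 and 0.21. The count was thus 4 of 9, 2 in each direction, against 66.1% of all genes, and the median over the 9 was -0.02, beside -0.09 over all genes.

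In this contrast the sign of Tert turned on the scaling. Tert stood at 0.16 (adjusted p = 0.383) with library size alone. It stood at -0.40 (0.0445) when the tracheal libraries were thinned at random to 11971725 reads, the median of the lung libraries. The thinning was not repeated, so this shift cannot be told apart from the sampling of that draw. With library size alone, 6 genes were called higher and 1 lower and Tinf2 was no longer called (-0.23, adjusted p = 0.0894). Over all 17989 genes tested, 12287 were called with it, against 11895 as reported. Of the 15 proliferation genes, 12 were higher in BSCs and 1 lower (median 1.96), with Mki67 12.4-fold higher (2.08e-08) and Mcm2 1.59-fold (0.00277).

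The 2 airway gates were compared within the lungs of mice 4 to 6. CD24hi cells had less Tert, Dkc1 and Terf1 than CD24lo cells and more Terf2 and Tinf2. Tert was 0.539-fold (log2 fold change -0.89 ± 0.20 SE, adjusted p = 0.000824), Dkc1 0.642-fold (-0.64 ± 0.12, 0.000269) and Terf1 0.602-fold (-0.73 ± 0.18, 0.00223). Terf2 was 1.24-fold higher (0.31 ± 0.08, 0.00392) and Tinf2 1.22-fold (0.28 ± 0.11, 0.0401). That made 5 of 9, against 55.0% of all genes, with a median of -0.16 beside -0.06. Pot1a was at -0.35 (0.0513) and Terf2ip, Acd and Rtel1 were between -0.16 and 0.10.

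A fit of only the 6 libraries called 3 genes, Tert, Dkc1 and Terf1, with and without pairing by mouse. Over all 17989 genes tested it called 8397 with pairing and 7375 without, against 9899 as reported. It lost Terf2 (adjusted p = 0.0928 unpaired and 0.0908 paired) and Tinf2 (0.199 and 0.174), and Tinf2 was also lost with no low-count filter (0.0525), with limma voom (0.0625) and without mouse 4 (0.153). Pot1a passed with a filter at 1 CPM (0.0437), with thinned tracheal libraries (0.0492) and without CD24hi replicate 3 (0.0228). Without the CD24hi library of mouse 4 Terf1 was at -0.48 (0.00209) and Tinf2 at 0.20 (0.135); Tinf2 was also lost without CD24hi replicate 2 (0.0878) or CD24lo replicate 2 (0.115) or 3 (0.0798). With library size alone Terf1 was no longer called (-0.44, adjusted p = 0.052) and the 5 calls were 3 higher and 2 lower. That scaling called 10235 of the 17989 genes tested. None of 15 proliferation genes was called higher in CD24hi cells and 9 were lower, Mki67 among them at 0.283-fold (adjusted p = 0.000558), and Mcm2 stood at 0.754-fold (0.108).

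CD24lo cells differed from alveolar cells in 5 of the 9 genes, 1 higher and 4 lower, against 48.4% of all genes. Terf1 was 1.7-fold higher (log2 fold change 0.76 ± 0.18 SE, adjusted p = 0.00215). Tert was 0.502-fold (-0.99 ± 0.17, 0.000122), Acd 0.516-fold (-0.96 ± 0.11, 1.18e-06), Tinf2 0.698-fold (-0.52 ± 0.11, 0.000865) and Terf2ip 0.801-fold (-0.32 ± 0.10, 0.0111). Dkc1 was at 0.28 (0.0738), but was called without mouse 4 (0.46, 0.00798), CD24lo replicate 1 (0.0267) or alveolar replicate 1 (0.0349). Terf2, Pot1a and Rtel1 were between -0.08 and 0.18. The median over the 9 was -0.08, beside 0.03 over all genes. The Terf2ip call was lost in a fit of only the 6 libraries (-0.30, adjusted p = 0.062 unpaired and 0.0844 paired by mouse), and without mouse 4 (-0.21, 0.126), CD24lo replicate 1 (0.0535) or 2 (0.0501) or alveolar replicate 1 (0.0587). Of the 15 proliferation genes, 3 were higher and 6 lower in CD24lo cells, with Mki67 at 1.12-fold (0.731) and Mcm2 at 0.507-fold (0.000459).

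EpCAM-negative cells differed from alveolar cells in 6 of the 9 genes, 2 higher and 4 lower, against 61.9% of all genes. Tert showed the largest of these differences, at 0.322-fold (log2 fold change -1.63 ± 0.18 SE, adjusted p = 2.99e-07). Terf2ip was 0.678-fold (-0.56 ± 0.10, 6.76e-05), Acd 0.718-fold (-0.48 ± 0.11, 0.000841) and Terf2 0.789-fold (-0.34 ± 0.08, 0.00191). Pot1a was 1.51-fold higher (0.59 ± 0.14, 0.00124) and Rtel1 1.53-fold (0.61 ± 0.12, 0.000258). Dkc1 stood at 0.23 (0.11), but passed with DESeq2 (0.0426), with library size alone (0.41, 0.00687), and without alveolar replicate 1 (0.0458) or mouse 4 (0.0443). Terf1 (-0.10) and Tinf2 (-0.05) did not pass. The median was -0.10, beside 0.01 over all genes. With library size alone Terf2 was no longer called (-0.16, 0.121) and the 6 calls were 3 higher and 3 lower. That scaling called 11059 of the 17989 genes tested. Of the 15 proliferation genes, 1 was higher and 10 were lower, Mki67 at 0.424-fold (0.00747) and Mcm2 at 0.44-fold (3.91e-05), and fibroblast, endothelial and leukocyte markers were at the levels given above; their part in these differences was not tested. The 3 comparisons with alveolar cells share the same 3 alveolar libraries.

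**Figure D4:**
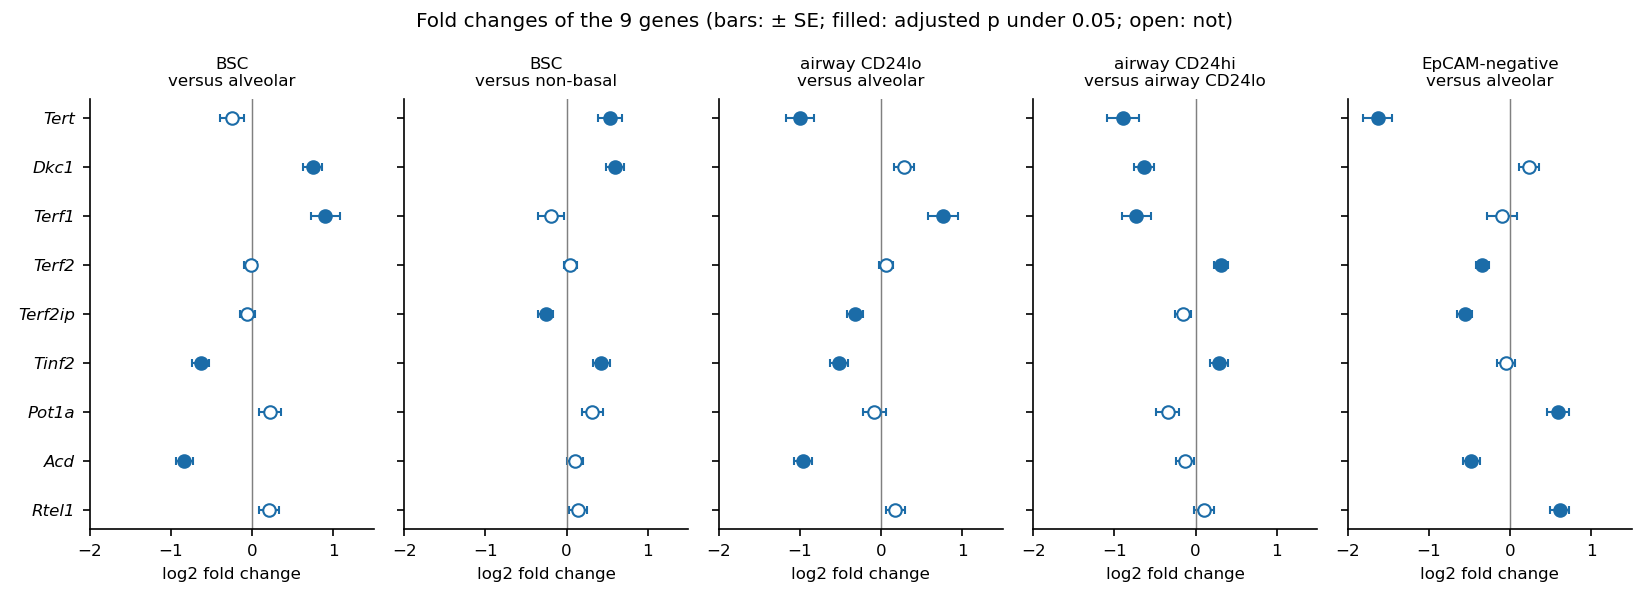
Log2 fold change (horizontal axes) of each of the 9 genes in 5 comparisons, with bars of 1 SE; filled points passed an adjusted p of 0.05 and open points did not. Tert ran from -1.63 in EpCAM-negative against alveolar cells to 0.54 in BSCs against non-basal cells.

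The calls for Acd and Tinf2 carry a limit of annotation. In GENCODE M21 (GRCm38), 33.3% of the exonic bases of Acd overlap exons of Carmil2 on the opposite strand and 31.2% of those of Tinf2 overlap Gmpr2, and the strand setting of the counting is not given in the sources used here. Those shares are of 3625 and 4938 exonic bases, whereas the counting used RefSeq genes of 1425 and 1739 bases. The overlap within the counted bases was not determined. Carmil2 was low, with means of 0.367 to 0.822 RPKM, and its log2 fold change in BSCs against alveolar cells was -0.21 (adjusted p = 0.593). It was higher in EpCAM-negative than in alveolar cells (0.95, 0.0181), where Acd was lower. Gmpr2 had means of 11.7 to 18.5 RPKM in epithelial populations and 19.0 in EpCAM-negative cells, and was higher in BSCs than in alveolar cells (0.46, 0.000973), where Tinf2 was lower, and higher in BSCs than in non-basal cells (0.44, 0.00155) and in CD24hi than in CD24lo cells (0.45, 0.00149), where Tinf2 was higher too. For the other 7 genes, overlap was at most 2.18% of exonic bases, and at most 0.574% of their 100-base windows occurred in transcripts of another gene.

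A wider list of 28 telomere genes was followed beside the 9. Terc, the telomerase RNA, had 0 to 3 reads in each library, below the filter, and was not tested, which left 27. Whether the libraries captured this RNA was not tested, so these counts do not show that the cells lacked it. Of all genes, 66.1% were called in BSCs against alveolar cells and 48.2% against non-basal cells. The shares were 55.0% in CD24hi against CD24lo cells, and 48.4% in CD24lo and 61.9% in EpCAM-negative against alveolar cells. In BSCs against alveolar cells 17 were higher and 4 lower (median 0.42), the largest rises being those of the helicase gene Pif1 (6.09-fold, adjusted p = 0.000172, on 1 to 8 reads per alveolar library) and the telomerase inhibitor gene Pinx1 (3.09-fold, 1.1e-08), and the largest falls those of the telomeric zinc finger gene Zbtb48 (0.5-fold, 1.33e-05) and Tep1 (0.567-fold, 7.07e-08). By function, 8 of 10 tested genes listed under telomerase RNA and assembly were higher and 1 lower. The 8 include the inhibitor gene Pinx1, and whether the amount of telomerase differed was not tested. Of 17 genes of end protection and processing, 9 were higher and 3 lower. Of all 17989 genes tested, 5485 were higher and 6410 lower. Against non-basal cells, BSCs had 5 higher and 2 lower (median 0.15): the H/ACA protein gene Gar1 (1.59-fold, 0.000796) and Ctc1 of the telomere replication complex CST (1.53-fold, 0.000343) led the rises, and Nop10 (0.789-fold, 0.0302) and Tep1 (0.813-fold, 0.00439) fell. In a fit of only the 6 libraries this last comparison called 12, 10 higher and 2 lower, and with pairing by mouse 17, 14 higher and 3 lower. Calls over all 17989 genes tested rose as well, from 8668 in the fit of 18 libraries to 10393 and, with pairing, 11521. With library size alone, BSCs had 22 of the list higher and 2 lower than alveolar cells, and 20 higher than non-basal cells with 0 lower. That scaling called 12287 and 10769 of all genes tested in these comparisons.

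In CD24hi against CD24lo cells, 10 of the 27 were higher and 3 lower (median 0.08), and the AAA+ ATPase genes Ruvbl2 (4.89-fold, adjusted p = 1.32e-09) and Ruvbl1 (4.08-fold, 2.05e-09), whose products act in telomerase assembly and also in the assembly of ciliary dynein arms and of chromatin remodellers, led the rises, while Pinx1 (0.645-fold, 0.00159) and the chromatin remodeller gene Atrx (0.673-fold, 0.025) fell most. Ruvbl2 reached 142 RPKM in CD24hi cells against 13.7 to 29.1 elsewhere, in the population with the lowest mean of Tert and of Dkc1. In CD24lo against alveolar cells 8 were higher and 5 lower (median 0.15), led by the H/ACA genes Nhp2 (2.29-fold, 2.89e-07) and Gar1 (1.97-fold, 6.71e-05) and by falls of the CST gene Ten1 (0.465-fold, 2.42e-06) and Tep1 (0.556-fold, 1.48e-07). In EpCAM-negative against alveolar cells 8 were higher and 8 lower (median 0.09), with Blm, a helicase gene, at 1.89-fold (0.0197) and Pot1b at 1.77-fold (0.000135) among the rises and Ten1 (0.333-fold, 1.43e-08) and Zbtb48 (0.45-fold, 4.88e-06) among the falls. Pot1b was also higher in BSCs than in non-basal cells (1.41-fold, 0.00735), lower in CD24hi than in CD24lo cells (0.748-fold, 0.0293), and did not pass in BSCs (1.21-fold, 0.113) or CD24lo cells (1.28-fold, 0.0709) against alveolar cells. With library size alone the calls of the list were 14 higher and 0 lower between the airway gates and 13 higher and 5 lower in EpCAM-negative against alveolar cells. Over all 17989 genes tested, 10235 and 11059 were called with it.

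**Figure D5:**
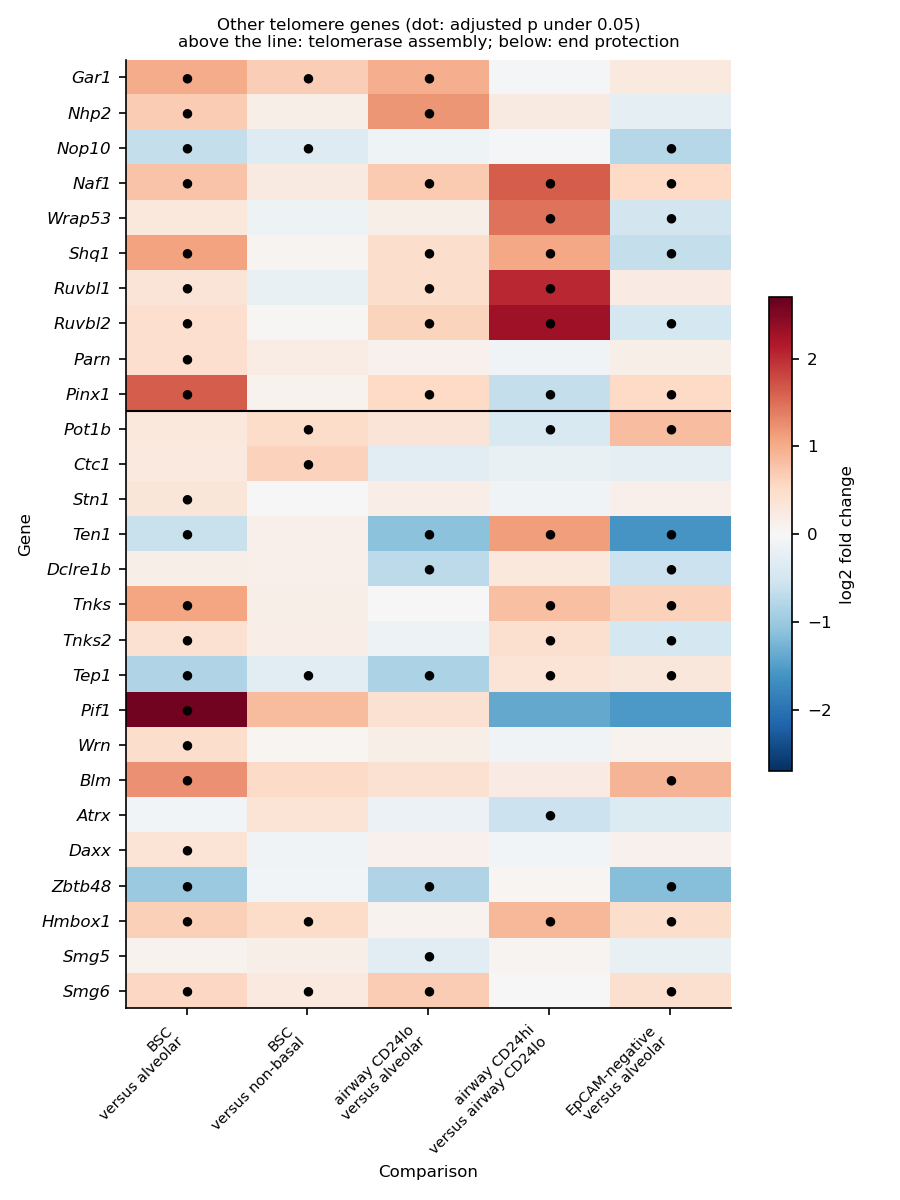
Log2 fold change (colour) of 27 other telomere genes (rows) in the 5 comparisons (columns); dots mark an adjusted p under 0.05. The column of airway CD24hi against CD24lo cells shows Ruvbl2 at 4.89-fold and Ruvbl1 at 4.08-fold, and that of BSCs against alveolar cells shows 17 genes higher and 4 lower. Of all genes, 66.1% were called in the latter.

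The genes whose log2 CPM over the 18 libraries followed that of each of the 9 most closely were listed from 14435 candidates with a mean of at least 1 CPM. For Tert they were the mitotic checkpoint kinase gene Bub1 (Pearson r = 0.951), Pi4kb (0.947) and Spry2 (0.943). For Dkc1 they were Gabpb2 (0.939), Mdn1, which acts in ribosome assembly (0.917), and Ldlrad3 (0.916). The closest to Terf1 was Mitd1 (0.96), to Terf2 Gm10044 (0.953), to Terf2ip Hsbp1l1 (0.947), to Tinf2 Gigyf1 (0.962), to Pot1a Arl14ep (0.932), to Acd Vps39 (0.965) and to Rtel1 Tafa5 (0.897). Bub1 itself was highest in alveolar cells, at 4.96 RPKM, and had 2.07 in BSCs, whereas Mki67 had 1.05 and 13.0. These correlations describe 18 libraries that share population, organ and depth.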

How the data were processed

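RNA from FACS-sorted tracheal and lung cells was sequenced as single-end reads, which the authors aligned to mm10 with Rsubread and assigned to Entrez genes with featureCounts and its in-built RefSeq annotation. The deposited values are raw counts per gene with a gene length; the labels list bcl2fastq 1.8.4. A table of the whole series with the same counts was not used, and 0 rows named no gene. For 25275 genes NCBI's table for GRCm38.p6 gave a symbol.

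The counts were analysed in R 4.3.3. A gene was tested if it had more than 0.2 CPM, for this filter scaled to library size alone, in 3 or more libraries, which left 17989. TMM factors and the quasi-likelihood test of edgeR 4.0.16 (glmQLFit, glmQLFTest) were applied in 1 fit of 18 libraries with 12 residual degrees of freedom, with p-values Benjamini-Hochberg adjusted over all genes at 0.05. The procedure was tested on simulated counts in which 200 of 17989 genes were changed by a log2 fold change of 1 in BSCs. The test against alveolar cells recovered 122 of the 200, with 9 false calls. Smaller changes were not simulated, so a gene that did not pass may still differ. RPKM used TMM-scaled library sizes. Groups and mice came from the labels. Replicates of a population are separate mice, and no pair of replicate libraries agreed within sampling noise (chi-square per degree of freedom at least 3.5). In BSC, non-basal, CD24hi and CD24lo cells this value was 21.1 to 39.6 for pairs with replicate 1. Replicates 2 and 3 of these populations had 5.23 to 7.43. In alveolar cells, pairs with replicate 2 had 38.1 and 36.2, and replicates 1 and 3 had 5.7. EpCAM-negative pairs had 3.5 to 7.5. The cause was not tested. The intervals of Tert cover counting error only.

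Same-numbered libraries within trachea or within lung come from 1 mouse. Their deviations from the group means correlated at 0.117 to 0.336 for BSC and non-basal cells, 0.044 to 0.278 for the airway gates and -0.059 to 0.093 for the other lung pairs. Alternatives were DESeq2 1.42.0, limma voom 3.58.1, other scaling and filters, and a fit of 6 libraries with and without a replicate block. Others were removal of a length trend, thinning in a random draw that was not repeated, and leaving out each library. Leaving out mouse 4 was added after seeing the data, and it removes alveolar replicate 1 but not alveolar replicate 2. The members and lists were chosen with earlier results of these data known. Named genes are the 9, Pot1b, in each comparison up to 2 of the largest rises and 2 of the largest falls among called genes of the other list, Mki67 and Mcm2, and the most alike genes (3 for Tert and Dkc1, 1 for the others). Carmil2, Gmpr2, single marker and proliferation genes, the further levels of Ruvbl2 and Bub1 and the correlations between members were named after their values were seen.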

Additional observations from a re-analysis of the deposited data

How the results depend on the processing

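Depth limits Tert in the lung, where 20 to 79 reads per library carry its value, and 3 libraries per population limit every comparison. Scaling by library size alone shifted the median over all genes tested (log2 scale) from -0.09 to 0.29 (BSCs against alveolar cells), from -0.02 to 0.31 (BSCs against non-basal cells), from -0.06 to 0.21 (CD24hi against CD24lo cells) and from 0.01 to 0.19 (EpCAM-negative against alveolar cells). With it 7 of the 9 genes were called in BSCs against alveolar cells (6 higher, 1 lower) and 7 against non-basal cells (7 higher, 0 lower), against 4 each as reported, and 20 of the wider list in the second of these. Over all 17989 genes tested, this scaling raised the calls from 11895 to 12287 and from 8668 to 10769. It moved 9 further called values by over 1.5 times without losing the call, among them Tert (0.89) and Dkc1 (0.95) against non-basal cells and Dkc1 (1.15) and Acd (-0.43) against alveolar cells. Its reversed fold changes were 0.16 (Tert), 0.39 (Terf2) and 0.35 (Terf2ip) in BSCs against alveolar cells, 0.15 (Terf1) and 0.0905 (Terf2ip) against non-basal cells, 0.13 (Terf2ip) and 0.15 (Acd) in CD24hi against CD24lo cells, and 0.0808 (Terf1) and 0.13 (Tinf2) in EpCAM-negative against alveolar cells. Terf2ip against non-basal cells was the 1 called value that reversed.

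A fit of only the 6 libraries compared called 3 genes in CD24hi against CD24lo cells without and 3 with the replicate block, and 12 and 17 of the wider list in BSCs against non-basal cells. Over all genes tested, it called 7375 and 8397 in the first of these comparisons and 10393 and 11521 in the second. In BSCs against alveolar cells Terf2 and Terf2ip reversed to 0.0699 and 0.032 in it without and 0.0703 and 0.032 with the block; those libraries share only a number, and Pot1a and Rtel1 passed without the block (adjusted p = 0.0331 and 0.00508) and with it (0.0192 and 0.00871). Set against the same fit of 6 libraries without it, the block changed the call of Pot1a in BSCs against non-basal cells and no other call of the 9 genes. Other reversals were of uncalled values near 0: Terf2 in BSCs against alveolar cells (0.012 with DESeq2 and 0.0123 with its size factors alone, -0.0451 to 0.0184 over single libraries left out), Tinf2 in EpCAM-negative against alveolar cells (0.0096 with DESeq2, 0.0108 with its size factors alone, 0.032 with the length trend removed, -0.10 to 0.0244 over libraries), Terf1 in the same comparison (0.0451 without mouse 4, -0.21 to 0.0358), Rtel1 in CD24hi against CD24lo cells (-0.0885 without mouse 4, -0.0047 to 0.25) and Terf2 in BSCs against non-basal cells (-0.0061 to 0.0873). The causes were not tested.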
